A study of Homo sapiens with 24 samples.

Results

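The base-level difference between the A-498 and 786-0 lines was measured in 6 of the 24 libraries of the series, 3 per line, all from cells given control siRNA (Cnsi) and no IFNγ. Both lines are human clear cell renal cell carcinoma (ccRCC) lines, written A-498 and 786-0 in the sample labels and A498 and 786-O in the protocols. Versions of both lines carrying a lentiviral Renilla luciferase under puromycin selection were made in the study, and the sources do not say whether the RNA came from these or from the parent cells. The Cnsi cells received a non-targeting siRNA pool at 20 nM, and the other 3 conditions of the study added IFNγ at 50 ng/mL for 24 hours (Cnsi IFNγ), used siRNA against PD-L1 in its place (PD-L1si, called knockout in the series text), or did both (PD-L1si IFNγ). The sources do not say whether the 3 libraries of a group came from separate cultures, so the p-values measure only the spread between these libraries, which may be technical.

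Most ccRCC arise from the proximal tubule of the kidney and lose the VHL protein, which marks the hypoxia-inducible factors HIF-1α and HIF-2α for degradation, so that hypoxia targets stay on in normal oxygen. Cell lines from such tumours often keep lineage factors such as PAX8 but differ in mutations, chromosome content and metabolic state. Other programmes with known settings in renal carcinoma are the antioxidant response run by NRF2 and held in check by KEAP1, and the amino acid response run by ATF4. A comparison of lines given control siRNA and no IFNγ shows the level against which responses to IFNγ or to PD-L1 siRNA are read in this study.

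Line and instrument cannot be told apart in these data. The study's methods place the libraries of A498 on a NovaSeq and those of 786-O on a NextSeq, so no library separates the effects. Moreover, when the study's tables of IFNγ responses are taken in the order in which it names its lines, they fit the 2 line labels exchanged: the responses tabulated for each line follow the libraries labelled as the other. Which source is exchanged was not tested here, and every direction below is that of the sample labels. Genes of chromosomes X and Y and rows at 0 in all 12 libraries of either line were left out. That second step matters, because 1475 rows with more than 1000 counts over the 12 libraries labelled A-498 were at 0 in all 12 labelled 786-0, among them ACTB, VHL and VEGFA, and only 35 rows were so the other way round. Of 1471 such annotated rows, 1.29% carried the gene version of GENCODE 44, against 71.0% of the 10422 rows above 1000 counts in both lines. The cause was not tested, and none of those rows was used as a difference between the lines.

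Of 39321 rows, 28014 remained, and 19470 had a summed count of at least 10 in either group and were tested (12177 protein-coding genes and 5020 lncRNAs). The remaining rows held 20587965 to 20769357 counts per library labelled A-498 and 26089855 to 29433060 per library labelled 786-0. Pearson correlations of log2(CPM + 1) across genes were 0.998 to 0.999 between replicates and 0.921 between the group means of the lines. By chi-square per degree of freedom of the counts, replicate 3 labelled 786-0 stood apart, at 10.4 and 12.0 from the other 2, which were at 1.99 from each other, against 1.62 to 4.08 among the libraries labelled A-498. Without it 6529 genes were called in place of the 6696 given next. Mitochondrial transcripts took 4.35% to 5.35% of counts in the libraries labelled A-498 and 5.28% to 7.63% in those labelled 786-0, where replicate 3 was the lowest. The fold change rose with the GC content of protein-coding genes, from a median log2 fold change of -0.28 in the fifth with the lowest GC to 0.39 in the fifth with the highest (Spearman 0.245 over 12177 genes, a description). With fold changes centred within bins of GC content 6526 genes were called, and the part of the instrument was not tested.

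Fold changes are coded as 786-0 minus A-498, so a positive log2 value means a higher level in the libraries labelled 786-0. A gene was called at an adjusted p under 0.05 (edgeR quasi-likelihood test, adjusted over all genes tested) and a change of more than 2-fold (log2 over 1). By this rule 6696 genes, 34.4% of those tested, differed between the lines. Of these, 2797 were higher in the libraries labelled A-498 (14.4% of genes tested) and 3899 in those labelled 786-0 (20.0%). Large differences were common: 734 genes were more than 8-fold higher (log2 over 3) in the libraries labelled A-498 and 1461 in those labelled 786-0. The median over all genes was 0.04 and the median absolute log2 fold change 0.69. These values and the shares called, 34.4% in all and 14.4% and 20.0% by direction, are those against which each gene list below is set. In most lists the rule on rows at 0 took out more genes at 0 in the libraries labelled 786-0 than at 0 in those labelled A-498. Counts by direction do not include the genes taken out. Since 14420 genes passed the adjusted p alone, the size of a change says more here than its p. Levels are in CPM, counts scaled to a common library size over the remaining rows after TMM scaling. CPM is not divided by gene length, so levels are compared between lines and not between genes.

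**Figure D1:**
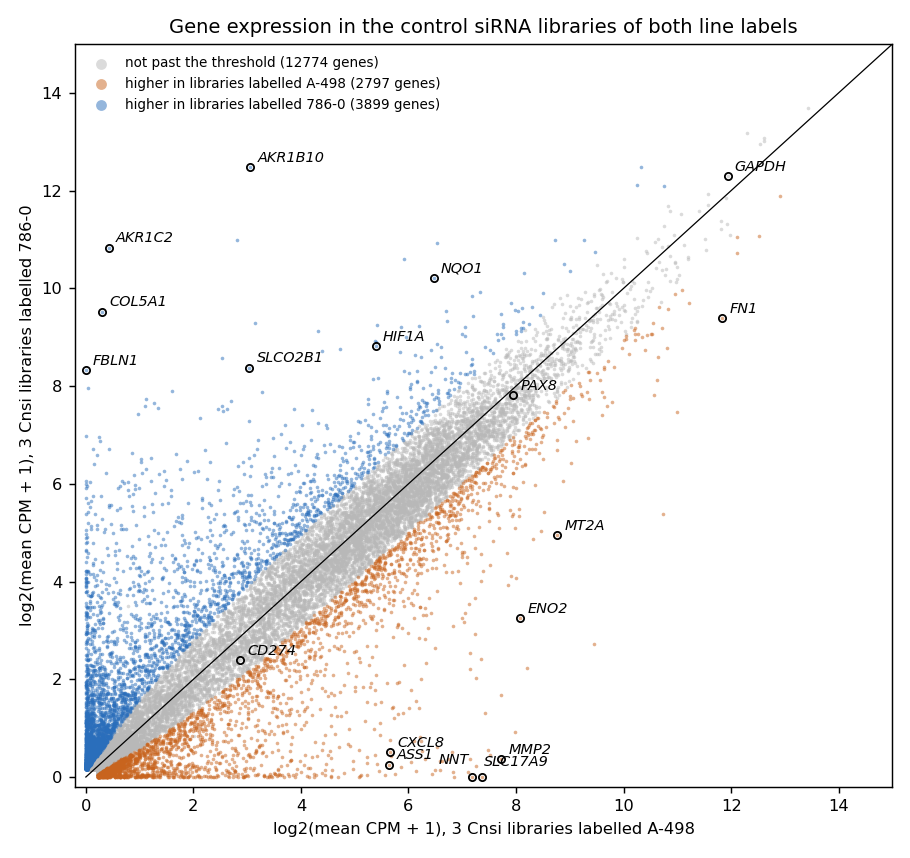
Mean level of each of the 19470 genes tested in the 3 Cnsi libraries labelled A-498 (horizontal) and the 3 labelled 786-0 (vertical), as log2(mean CPM + 1), with genes called higher in either label in colour and 18 genes named. The cloud runs along the line of equal levels, and AKR1B10, AKR1C2, COL5A1 and FBLN1 lie far above it while MMP2, NNT and SLC17A9 lie on or near the horizontal axis.

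Some genes were read in 1 line and hardly or not at all in the other. Among protein-coding genes with a mean of at least 10 CPM in the higher group and at most 3 counts summed over the other, 21 were on in the libraries labelled A-498 and 49 in those labelled 786-0. Genes at 0 in all 12 libraries of a line had been left out, so genes never read in a line are not among them. The libraries labelled A-498 held fewer counts, so the limit of 3 counts was easier to meet there. The numbers are thus not to be read as a balance between the lines. NNT, the mitochondrial transhydrogenase that makes NADPH from NADH (ENSG00000112992.18, chr5:43602692-43707405), stood at 167, 165 and 161 CPM in the libraries labelled A-498 and 0 counts in every library labelled 786-0. That is at least 4634-fold higher against a floor of 3 counts over the group. The nucleotide transporter gene SLC17A9 (at least 4042-fold) and GYPC, which encodes the red cell membrane protein glycophorin C (at least 3213-fold), were also at 0 counts in the 3 libraries labelled 786-0. In the opposite direction FBLN1, encoding the matrix protein fibulin-1 (ENSG00000077942.19, chr22:45502238-45601135), had 0 counts in every library labelled A-498 and 319, 303 and 334 CPM in those labelled 786-0, at least 6438-fold higher. PTPRN, which encodes a receptor-type phosphatase protein of secretory granules, was at least 2526-fold higher in the libraries labelled 786-0, and the glutamate receptor subunit gene GRIN2D at least 1274-fold. SLPI, a secreted inhibitor of leukocyte proteases, was at least 1039-fold higher there. That groups did not overlap for any of these genes follows from how they were picked. Most genes named below were picked for large changes, so non-overlap there is a description as well. The share of all genes whose groups do not overlap was not counted.

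The off states were seen beyond the control siRNA condition. All 21 and all 49 genes stayed below 1 CPM in every one of the 12 libraries of the other line, IFNγ and PD-L1si libraries included, while the on levels in the other conditions are not given here. Of these genes, 16 of 21 and 35 of 49 carried the GENCODE 44 version of their identifier, against 69.9% of the protein-coding genes tested. Exons shared with another gene on the same strand make some of them uncertain: UGT1A8 among the 21, and PCDHGB5, PCDHA10 and LY75 among the 49, share most of their exonic bases, and 3 others more than 20% of them. Over all calls, 137 of the 2797 genes higher in the libraries labelled A-498 had 0 counts in the other group, as did 362 of the 3899 in the other direction, and for those no fold change is given other than a lower bound. The rule on rows at 0 and the difference in depth limit these numbers too.

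**Figure D2:**
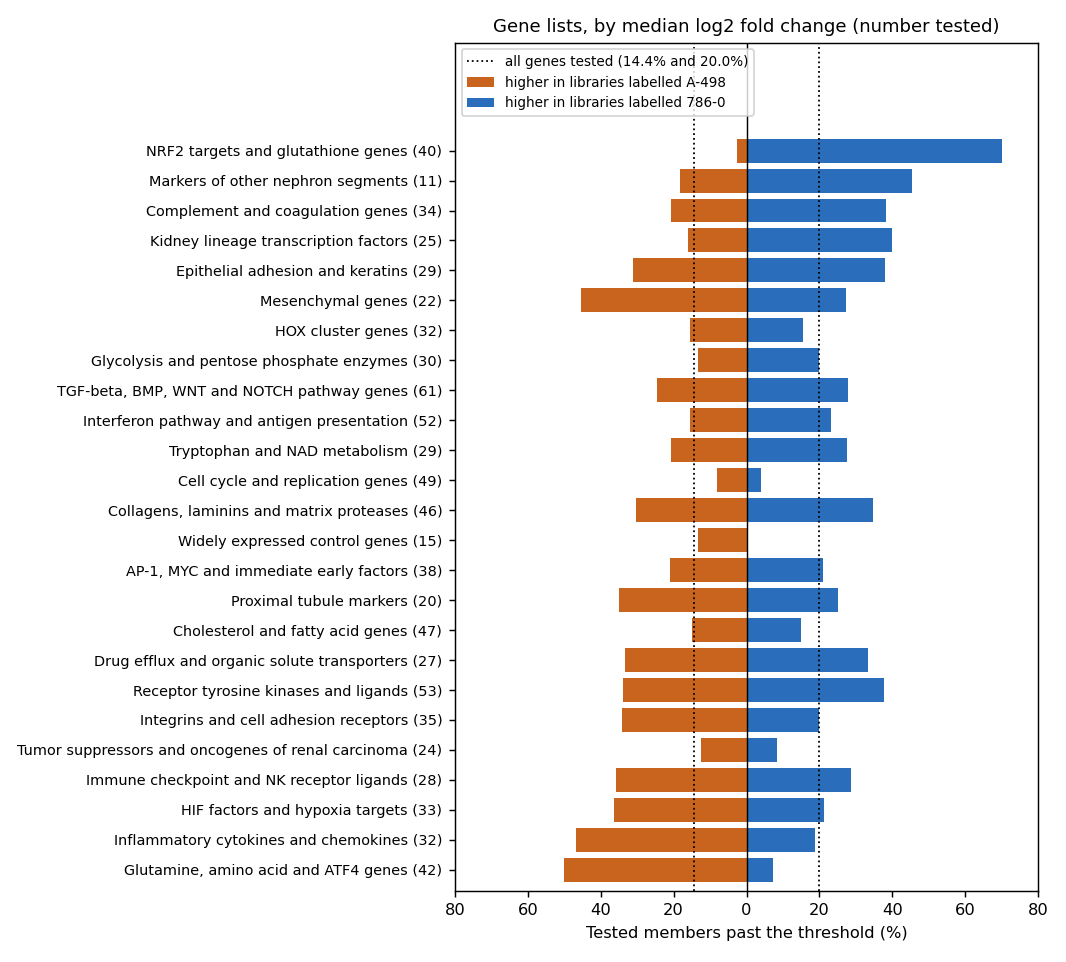
Share of the tested members of each gene list called higher in the libraries labelled A-498 (left) and 786-0 (right), in per cent, with lists of at least 10 tested members in order of their median log2 fold change and the shares of all genes tested as dotted lines. The NRF2 list reaches farthest to the right, and the glutamine and ATF4 list farthest to the left, while cell cycle genes stay inside both dotted lines.

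Among lists of at least 10 tested members, the antioxidant list had the median farthest from 0. The lists were chosen with earlier results of these data known, so ranks among them, here and below, are descriptions. NRF2 is a transcription factor that binds antioxidant response elements and drives enzymes that reduce quinones and aldehydes, make glutathione and supply NADPH. Of 40 NRF2 targets and glutathione genes tested, 28 were higher in the libraries labelled 786-0, 1 was higher in those labelled A-498 and 11 did not pass. The share called was 72.5%, against 34.4% of all genes. The median log2 fold change of the list was 1.84, against 0.04 over all genes. The promoters of 6 genes are shown for this list and the metallothioneins, as the 250 bases before the start of transcription from RefSeq (GRCh38.p14), printed from 5′ to 3′. In the first 4, capitals mark the core of the antioxidant response element, TGACNNNGC on either strand, for TXNRD1 at chr12:104215529-104215778 (plus strand), GCLM at chr1:93909431-93909680 (minus strand), AKR1C1 at chr10:4963165-4963414 (plus strand) and AKR1C2 at chr10:5003858-5004107 (minus strand). The first pair hold 1 match each and the second pair none.
TXNRD1: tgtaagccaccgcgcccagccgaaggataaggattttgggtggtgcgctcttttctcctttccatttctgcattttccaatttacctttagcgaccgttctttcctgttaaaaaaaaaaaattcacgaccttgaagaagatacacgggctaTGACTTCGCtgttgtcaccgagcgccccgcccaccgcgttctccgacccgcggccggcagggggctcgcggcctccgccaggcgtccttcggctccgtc
GCLM: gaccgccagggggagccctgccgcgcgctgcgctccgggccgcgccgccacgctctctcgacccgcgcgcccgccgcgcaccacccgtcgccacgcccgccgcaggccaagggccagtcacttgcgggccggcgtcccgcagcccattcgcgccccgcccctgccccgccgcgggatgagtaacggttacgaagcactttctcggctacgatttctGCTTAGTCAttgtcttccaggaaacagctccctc
AKR1C1: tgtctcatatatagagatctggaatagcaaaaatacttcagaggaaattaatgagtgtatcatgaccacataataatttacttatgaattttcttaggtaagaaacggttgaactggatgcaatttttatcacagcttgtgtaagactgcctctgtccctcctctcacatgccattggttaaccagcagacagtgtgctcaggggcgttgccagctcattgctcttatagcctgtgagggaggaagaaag
AKR1C2: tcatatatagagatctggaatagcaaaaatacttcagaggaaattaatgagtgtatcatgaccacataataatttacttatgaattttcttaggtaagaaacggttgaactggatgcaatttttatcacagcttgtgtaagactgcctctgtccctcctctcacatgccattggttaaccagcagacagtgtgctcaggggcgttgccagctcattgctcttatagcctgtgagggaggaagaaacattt

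Of the 22 members higher in the libraries labelled 786-0 with a promoter in the RefSeq table, 4 held the core in this window (GCLM, GPX2, GSTM1 and TXNRD1), or 18.2%. Of the 7 members called in neither direction, 2 held it (GSTA4 and ME1), or 28.6%, and of all 30 tested members with a promoter 6 did, or 20.0%. The share was 12.0% over the promoters of 11182 genes tested and 11.0% over all 27305 promoters. A match is only a description of these letters, and elements outside the window were not searched. The promoters of AKR1C1 and AKR1C2 were identical at 245 of 246 aligned bases, and the genes themselves are close copies, so reads may have been split between them and their separate levels are uncertain.

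Aldo-keto reductases reduce aldehydes, ketones and steroids with NADPH. Among them AKR1B10, AKR1C1, AKR1C2 and AKR1C3 differed by large factors, and AKR1B1 did not. AKR1B10 (ENSG00000198074.10, chr7:134527567-134541412) stood at 7.75, 7.24 and 6.98 CPM in the libraries labelled A-498 and 5759, 5355 and 5990 CPM in those labelled 786-0 (log2 fold change 9.6 ± 0.0637 (SE), adjusted p = 4.6e-214). AKR1C1 stood at 6.81, 5.56 and 5.68 CPM in the libraries labelled A-498 and 2099, 1944 and 2051 CPM in those labelled 786-0 (log2 fold change 8.4 ± 0.0619 (SE), adjusted p = 1.1e-205). AKR1C2 was read at under 0.5 CPM in each library labelled A-498 and at 1727 to 1876 CPM in those labelled 786-0 (log2 fold change 12.34), and AKR1C3 at 91.2 ± 5.39 against 1945 ± 97.5 CPM (mean ± SD, n = 3). For each of the 4 genes the lowest library labelled 786-0 was far above the highest labelled A-498. Of these 4, only AKR1C3 was well above 10 CPM in the libraries labelled A-498. AKR1B1 was abundant in both lines and not called. It stood at 3497 to 3741 CPM in the libraries labelled A-498 and 2348 to 2412 CPM in those labelled 786-0 (log2 fold change -0.58).

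Further members act on quinones and on conjugates for export. NQO1, the quinone reductase that is the textbook NRF2 target, stood at 89.5, 90.8 and 82.9 CPM in the libraries labelled A-498 and 1169, 1137 and 1243 CPM in those labelled 786-0 (log2 fold change 3.75 ± 0.0441 (SE), adjusted p = 4.9e-160). ABCC2, an efflux pump for glutathione conjugates, stood at 8.73, 6.89 and 8.07 CPM in the libraries labelled A-498 and 659, 632 and 582 CPM in those labelled 786-0 (log2 fold change 6.3 ± 0.0592 (SE), adjusted p = 9.9e-106). For both genes every library labelled 786-0 was above every library labelled A-498. The export pump gene ABCC3 differed less (314 ± 17.4 against 783 ± 52.1 CPM, log2 fold change 1.32). ALDH1A1, a retinal dehydrogenase, was abundant in both lines and higher in the libraries labelled 786-0 (1281 ± 53 against 5702 ± 261 CPM, log2 fold change 2.15).

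Several genes of glutathione and thioredoxin metabolism were called in the same direction. Other list members were not called, among them PRDX2 (log2 fold change -0.59), PRDX1 (0.64) and GSTA4 (0.75). Both subunits of glutamate-cysteine ligase, the first enzyme of glutathione synthesis, were higher in the libraries labelled 786-0, the modifier GCLM at 39.8 ± 1.14 against 281 ± 11.8 CPM, log2 fold change 2.82, and the catalytic GCLC at 27.9 ± 0.666 against 86.3 ± 4.64 CPM, log2 fold change 1.63. Glutathione reductase, GSR (96.9 ± 8.02 against 448 ± 21.4 CPM, log2 fold change 2.21), thioredoxin reductase, TXNRD1 (424 ± 15 against 2043 ± 106 CPM, log2 fold change 2.27), and thioredoxin itself, TXN (214 ± 4.5 against 587 ± 12.9 CPM, log2 fold change 1.45), were higher as well. So were HMOX1, which breaks down haem (47.5 ± 2.07 against 238 ± 6.32 CPM, log2 fold change 2.32), and PGD of the pentose phosphate pathway, which makes NADPH (145 ± 2.99 against 694 ± 24.8 CPM, log2 fold change 2.26). GSTM1, a glutathione transferase whose gene many people lack, had 0 counts in every library labelled A-498 and 28.9, 24.3 and 26.3 CPM in those labelled 786-0, at least 537-fold higher. The member higher in the libraries labelled A-498 was SOD3, the extracellular superoxide dismutase, with 988 counts over the libraries labelled A-498 and 1 count, in replicate 3, over those labelled 786-0 (a ratio of 1378 with a 95% counting interval of 247 to 54482). NFE2L2, the gene of NRF2 itself (202 ± 2.17 against 204 ± 7.83 CPM, log2 fold change 0.01), and KEAP1 (73.6 ± 4.1 against 114 ± 3.22 CPM, log2 fold change 0.63) were not called. Of the list's other members, SRXN1, GPX1, GPX4, GSTP1, GSTT2B and SOD1 were left out by the rule on rows at 0.

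**Figure D3:**
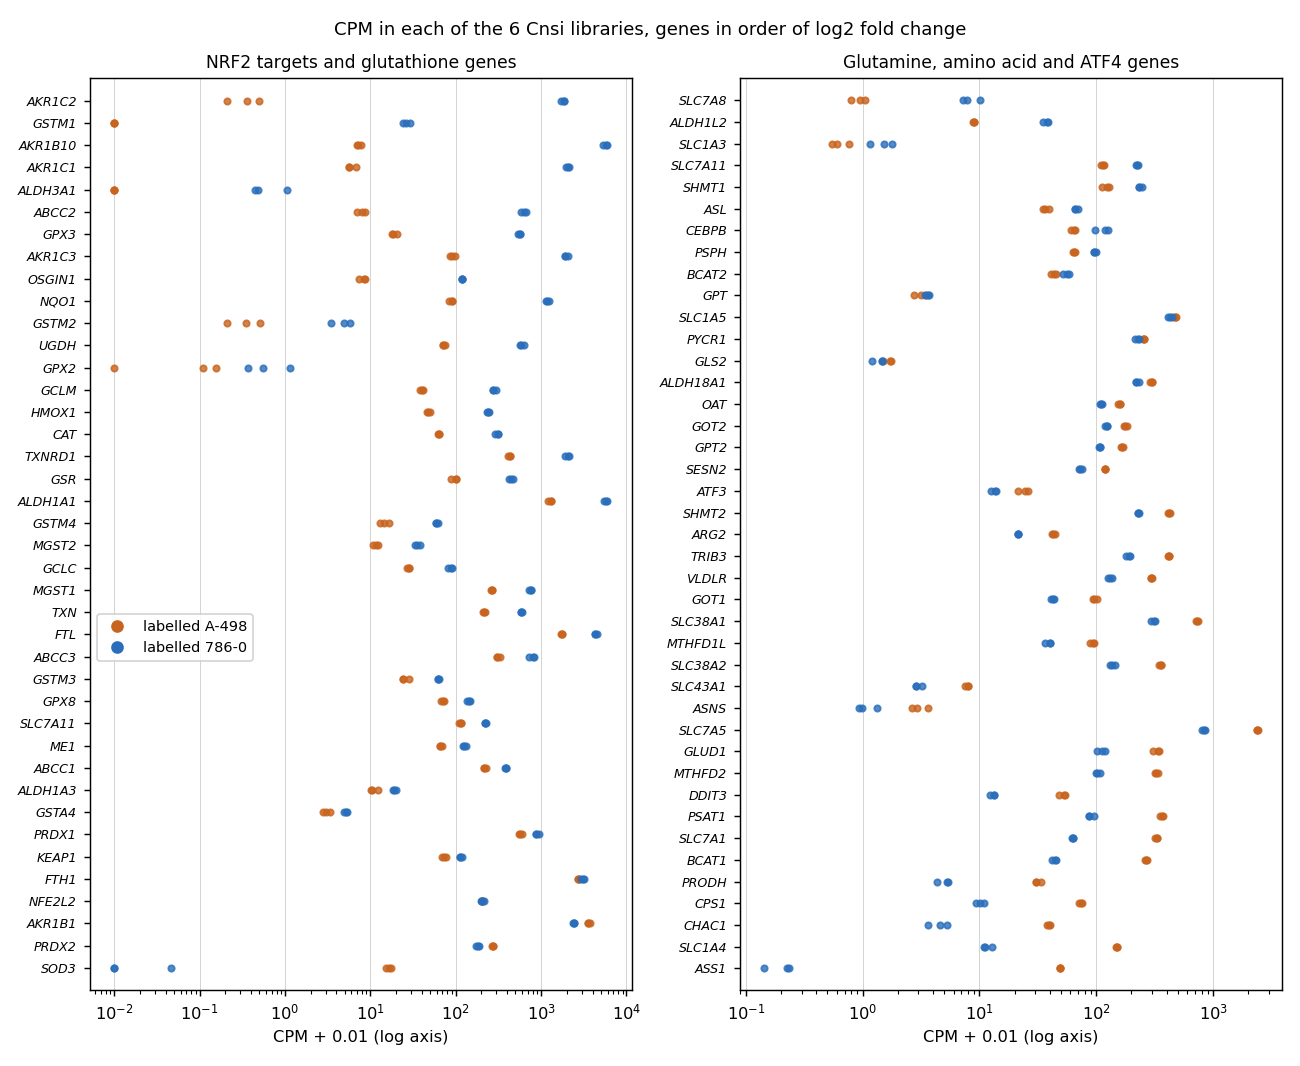
CPM + 0.01 on a log axis in each of the 6 Cnsi libraries for tested NRF2 and glutathione genes (left) and glutamine, amino acid and ATF4 genes (right), ordered by log2 fold change, with points for libraries and colours for labels. On the left most 786-0 points lie to the right of the A-498 points, by more than 100-fold for AKR1B10, and on the right most lie to the left, with ASS1 and SLC1A4 at the bottom.

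Metallothioneins, small cysteine-rich proteins that bind zinc and copper and are switched on by metals through the factor MTF1, went the other way. Only 3 of the 9 listed could be tested, since MT1A, MT1E, MT1G and MT1H were at 0 in all 12 libraries labelled 786-0 and 2 others were not analysed here, and the 3 tested were all higher in the libraries labelled A-498. In the promoters of MT2A at chr16:56608334-56608583 (plus strand) and MT1X at chr16:56682220-56682469 (plus strand), capitals mark the core of the metal response element, TGCGCNC or TGCACNC on either strand.
MT2A: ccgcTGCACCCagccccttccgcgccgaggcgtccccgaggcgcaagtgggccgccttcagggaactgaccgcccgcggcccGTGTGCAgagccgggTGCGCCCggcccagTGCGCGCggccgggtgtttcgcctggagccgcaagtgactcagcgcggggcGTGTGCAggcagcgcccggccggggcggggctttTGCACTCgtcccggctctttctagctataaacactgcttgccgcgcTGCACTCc
MT1X: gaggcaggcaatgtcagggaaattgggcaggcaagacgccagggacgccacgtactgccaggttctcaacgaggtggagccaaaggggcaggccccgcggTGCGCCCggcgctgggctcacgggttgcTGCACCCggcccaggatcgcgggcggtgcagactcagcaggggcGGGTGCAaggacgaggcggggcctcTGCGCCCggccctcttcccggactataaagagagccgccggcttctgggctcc
The MT2A window holds 7 matches and the MT1X window 4, where 32.2% of the promoters of 11182 genes tested hold at least 1. MT2A stood at 411, 428 and 464 CPM in the libraries labelled A-498 and 29.9, 25.8 and 33.9 CPM in those labelled 786-0 (log2 fold change -3.86 ± 0.104 (SE), adjusted p = 2.5e-07). MT1F stood at 19.5, 18.1 and 18.5 CPM in the libraries labelled A-498 and 0.403, 0.296 and 0.36 CPM in those labelled 786-0 (log2 fold change -5.7 ± 0.156 (SE), adjusted p = 4.5e-93), and MT1X at 4.92 ± 0.479 against 1.57 ± 0.232 CPM, log2 fold change -1.65. The metallothionein genes are close copies of each other, so how reads were shared among them is uncertain.

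Genes of amino acid metabolism and the ATF4 response that differed were mostly higher in the libraries labelled A-498. ATF4 is the factor that cells raise when amino acids run short or proteins misfold, and its targets import and make amino acids. Of 42 genes tested, 21 were higher in the libraries labelled A-498 and 3 in those labelled 786-0, with a median log2 fold change of -0.94. The share called was 57.1%, against 34.4% of all genes. ATF4 itself, PHGDH and GLUL were left out by the rule on rows at 0. ASS1, which joins citrulline and aspartate in arginine synthesis (ENSG00000130707.18, chr9:130444961-130501274), stood at 49, 49.1 and 49 CPM in the libraries labelled A-498 and 0.134, 0.222 and 0.216 CPM in those labelled 786-0 (log2 fold change -7.98 ± 0.131 (SE), adjusted p = 4.5e-136). SLC1A4, a carrier of alanine and serine, stood at 148, 152 and 150.0 CPM in the libraries labelled A-498 and 12.8, 10.9 and 11.3 CPM in those labelled 786-0 (log2 fold change -3.68 ± 0.0528 (SE), adjusted p = 2.4e-148). CHAC1, a glutathione-degrading enzyme and ATF4 target, stood at 37.6, 40.1 and 39 CPM in the libraries labelled A-498 and 5.24, 4.59 and 3.63 CPM in those labelled 786-0 (log2 fold change -3.11 ± 0.0799 (SE), adjusted p = 2.7e-90). All 3 libraries labelled A-498 were above all 3 labelled 786-0 for each of them.

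Smaller differences in the same direction ran through the list. BCAT1, which takes the amino group from branched-chain amino acids, had 267 ± 4.16 against 43.7 ± 1.47 CPM, log2 fold change -2.61, and the serine pathway gene PSAT1 had 363 ± 11.2 against 89.9 ± 5.43 CPM, log2 fold change -2.01. The leucine and tryptophan transporter gene SLC7A5 was abundant in both lines (2387 ± 26.1 against 828 ± 22.9 CPM, log2 fold change -1.53), as was the glutamine transporter gene SLC38A1 (727 ± 17.3 against 308 ± 13.7 CPM, log2 fold change -1.24). The members higher in the libraries labelled 786-0 were SLC7A8 (0.924 ± 0.126 against 8.36 ± 1.57 CPM, log2 fold change 3.17), ALDH1L2 (8.92 ± 0.0451 against 37.1 ± 1.93 CPM, log2 fold change 2.06) and SLC1A3 (0.627 ± 0.107 against 1.48 ± 0.318 CPM, log2 fold change 1.24). SLC7A11, the cystine carrier, which is a target of both ATF4 and NRF2, had 114 ± 3.31 against 223 ± 4.18 CPM, log2 fold change 0.97 and was not called.

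Tryptophan and NAD genes were mixed, with 6 of 29 higher in the libraries labelled A-498 and 8 in those labelled 786-0 (median log2 fold change -0.06). In all 48.3% were called, against 34.4% of all genes. Within the kynurenine pathway the members did not move together. TDO2, which opens the tryptophan ring (2.93 ± 0.409 against 18.1 ± 0.613 CPM, log2 fold change 2.62), and KYNU, which cleaves kynurenine (11.1 ± 0.466 against 79.1 ± 4.53 CPM, log2 fold change 2.83), were higher in the libraries labelled 786-0. KMO, which turns kynurenine into 3-hydroxykynurenine, stood at 287, 291 and 283 CPM in the libraries labelled A-498 and 85.7, 79.8 and 83.1 CPM in those labelled 786-0 (log2 fold change -1.79 ± 0.0399 (SE), adjusted p = 3.2e-110). IDO1, the other ring-opening enzyme, was under 1 CPM in both groups without IFNγ (0.164 ± 0.158 against 0.661 ± 0.0399 CPM, log2 fold change 1.97). Of the enzymes that make NAD, NAMPT, which starts from nicotinamide (282 ± 7.17 against 1279 ± 35.7 CPM, log2 fold change 2.18), NAPRT, which starts from nicotinic acid (8.96 ± 1.29 against 49.5 ± 1.95 CPM, log2 fold change 2.47), and QPRT, which starts from quinolinate (253 ± 12.7 against 756 ± 19.8 CPM, log2 fold change 1.58), were higher in the libraries labelled 786-0. Other NAD-making enzymes were mixed: NMNAT3 was higher in those libraries (0.609 ± 0.22 against 1.76 ± 0.252 CPM, log2 fold change 1.51), NMNAT1 was higher in those labelled A-498 (15.7 ± 1.37 against 6.51 ± 0.678 CPM, log2 fold change -1.27), as was NMNAT2 (0 counts in the other group), and NADSYN1 (65.3 ± 5.52 against 41.5 ± 3.9 CPM, log2 fold change -0.65) and NMRK1 (28 ± 1.45 against 26.8 ± 0.421 CPM, log2 fold change -0.06) were not called. WARS1, the tryptophanyl-tRNA synthetase, went the other way (154 ± 4.52 against 55 ± 2.31 CPM, log2 fold change -1.49).

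Hypoxia factors and targets differed in both directions, with 12 of 33 higher in the libraries labelled A-498 and 7 in those labelled 786-0 (median log2 fold change -0.57). The share called was 57.6%, against 34.4% of all genes. HIF1A, encoding HIF-1α (ENSG00000100644.17, chr14:61695513-61748259), stood at 39.2, 42.1 and 41.2 CPM in the libraries labelled A-498 and 452, 435 and 466 CPM in those labelled 786-0 (log2 fold change 3.47 ± 0.0448 (SE), adjusted p = 1.4e-157). EPAS1, encoding HIF-2α, stood at 489, 492 and 517 CPM in the libraries labelled A-498 and 188, 174 and 194 CPM in those labelled 786-0 (log2 fold change -1.43 ± 0.039 (SE), adjusted p = 2.8e-91). The 2 factor genes thus differed in opposite directions, and the groups overlapped for neither. Among the targets higher in the libraries labelled 786-0 were CXCR4, a chemokine receptor (0.81 ± 0.406 against 98.6 ± 3.87 CPM, log2 fold change 6.92), CA9, a carbonic anhydrase (0.907 ± 0.0515 against 18.3 ± 0.689 CPM, log2 fold change 4.32), and ANGPTL4, an inhibitor of lipoprotein lipase (8.1 ± 0.567 against 104 ± 1.69 CPM, log2 fold change 3.69). Higher in the libraries labelled A-498 were TGFA, a ligand of the EGF receptor (1454 ± 17.6 against 535 ± 24.3 CPM, log2 fold change -1.44), CCND1, encoding cyclin D1 (998 ± 27 against 439 ± 12.8 CPM, log2 fold change -1.18), and NDUFA4L2 (2.59 ± 0.401 against 0.173 ± 0.117 CPM, log2 fold change -3.83, and -4.48 without 786-0 replicate 1), which was low in both. VEGFA, EGLN3 and NDRG1 were left out by the rule on rows at 0.

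Among glycolysis and pentose phosphate enzymes, 4 of 30 were higher in the libraries labelled A-498 and 6 in those labelled 786-0, a share of 33.3% called that is close to the 34.4% of all genes. ENO2, the neuronal form of enolase, stood at 272, 265 and 273 CPM in the libraries labelled A-498 and 9.34, 7.92 and 8.23 CPM in those labelled 786-0 (log2 fold change -4.98 ± 0.0535 (SE), adjusted p = 3.4e-174), while the common form ENO1 was not called (2920 ± 70.3 against 2072 ± 73.4 CPM, log2 fold change -0.5). Hexokinase 2, HK2, was higher in the libraries labelled A-498 (90.2 ± 2.06 against 20.9 ± 1.57 CPM, log2 fold change -2.11), as was PCK2, the mitochondrial enzyme that makes phosphoenolpyruvate (91.7 ± 4.59 against 13.1 ± 0.446 CPM, log2 fold change -2.81). The non-oxidative pentose phosphate enzymes TKT (615 ± 14.6 against 2040 ± 61.5 CPM, log2 fold change 1.73) and TALDO1 (211 ± 7.88 against 712 ± 25 CPM, log2 fold change 1.75) were higher in those labelled 786-0. LDHA, lactate dehydrogenase, was not called (2033 ± 88.4 against 1389 ± 58.7 CPM, log2 fold change -0.55). SLC2A1, ALDOA, SLC16A1 and SLC16A3 were left out by the rule on rows at 0. Of 47 cholesterol and fatty acid genes, 7 were called in each direction (29.8%, against the same 34.4%), among them PPARGC1A, a coactivator of mitochondrial genes (33 ± 1.37 against 4.43 ± 0.296 CPM, log2 fold change -2.9), and CPT1A, which feeds fatty acids to mitochondria (9.22 ± 0.383 against 63.2 ± 3.34 CPM, log2 fold change 2.78).

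Genes of the extracellular matrix differed in both directions. Of 46 collagens, laminins and matrix proteases, 14 were higher in the libraries labelled A-498 and 16 in those labelled 786-0. In all 65.2% were called, against 34.4% of all genes. COL5A1, a fibrillar collagen chain (ENSG00000130635.16, chr9:134641803-134844843), stood at 0.148, 0.246 and 0.299 CPM in the libraries labelled A-498 and 746, 725 and 735 CPM in those labelled 786-0 (log2 fold change 11.61 ± 0.0909 (SE), adjusted p = 1.3e-202). LAMA4, a laminin chain of vessel and muscle basement membranes, stood at 0.197, 0.197 and 0.0498 CPM in the libraries labelled A-498 and 94.5, 93.2 and 97 CPM in those labelled 786-0 (log2 fold change 9.27 ± 0.124 (SE), adjusted p = 3.6e-154). MMP2, the gelatinase that cuts basement membrane collagen, stood at 203, 219 and 210.5 CPM in the libraries labelled A-498 and 0.302, 0.333 and 0.216 CPM in those labelled 786-0 (log2 fold change -9.51 ± 0.0915 (SE), adjusted p = 8.1e-184). Each of these genes was near absent in 1 line and moderately to highly expressed in the other. The chains of collagen VI split, with COL6A3 at 78.1 ± 4.96 against 0.297 ± 0.12 CPM, log2 fold change -8.02 and COL6A1 at 56.6 ± 0.951 against 415 ± 4.35 CPM, log2 fold change 2.88. PLAU, the urokinase that activates plasminogen (141 ± 2.32 against 4.77 ± 0.621 CPM, log2 fold change -4.88), was higher in the libraries labelled A-498. COL4A1 was just under the limit (1060 ± 25.1 against 538 ± 20.0 CPM, log2 fold change -0.98), and passed with GC centring (-1.19).

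Epithelial and mesenchymal genes each differed in both directions. Epithelial adhesion genes and keratins gave 9 of 29 higher in the libraries labelled A-498 and 11 in those labelled 786-0. The share called was 69.0%, against 34.4% of all genes. CDH1, E-cadherin, stood at 4.29, 3.45 and 3.49 CPM in the libraries labelled A-498 and 0.101, 0.0741 and 0.144 CPM in those labelled 786-0 (log2 fold change -5.07 ± 0.31 (SE), adjusted p = 6.6e-39), low in both lines but lower in the libraries labelled 786-0. EPCAM (4.26 ± 0.371 against 0.154 ± 0.027 CPM, log2 fold change -4.74) and the protease inhibitor genes SPINT1 (12.8 ± 0.315 against 0.256 ± 0.111 CPM, log2 fold change -5.6) and SPINT2 (71.8 ± 1.75 against 1.67 ± 0.522 CPM, log2 fold change -5.42) followed CDH1. DSP, the desmosome plaque protein, stood at 0.247, 0.542 and 0.349 CPM in the libraries labelled A-498 and 48.3, 46.4 and 45.1 CPM in those labelled 786-0 (log2 fold change 6.92 ± 0.127 (SE), adjusted p = 1.1e-126), and KRT18 (131 ± 8.71 against 589.8 ± 12.7 CPM, log2 fold change 2.17) and KRT8 (475 ± 20.0 against 1438 ± 61.5 CPM, log2 fold change 1.6), partners in simple epithelial filaments, were higher in those libraries too. Of 22 mesenchymal genes, 10 were higher in the libraries labelled A-498 and 6 in those labelled 786-0 (72.7% called, against 34.4% of all genes). The rule on rows at 0 left out 8 listed genes at 0 in the libraries labelled 786-0, CDH2, ZEB2, CD44 and FBN1 among them. It left out 2 at 0 in those labelled A-498. FN1, fibronectin (3652 ± 125 against 671 ± 12.6 CPM, log2 fold change -2.45), VIM, vimentin (4424 ± 62.2 against 1690 ± 80.5 CPM, log2 fold change -1.39), and ZEB1, a repressor of CDH1 (33.4 ± 1.32 against 14.4 ± 0.83 CPM, log2 fold change -1.22; -0.92 and not called with GC centring), were higher in the libraries labelled A-498, and SNAI1 (9.22 ± 0.627 against 69.5 ± 2.1 CPM, log2 fold change 2.91) and CDH11 (2.18 ± 0.0819 against 36.6 ± 1.59 CPM, log2 fold change 4.07) in those labelled 786-0. LUM, a fibroblast proteoglycan, had 5.77, 5.96 and 6.48 CPM in the libraries labelled A-498 and 0 counts in every library labelled 786-0.

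Growth factor receptors and ligands differed in 38 of 53 genes tested, or 71.7%, against 34.4% of all genes. The rule on rows at 0 left out 9 listed genes at 0 in the libraries labelled 786-0, EGFR, ERBB3 and KIT among them. It left out 3 at 0 in those labelled A-498. Higher in the libraries labelled A-498 were 18, among them ROR2, a receptor of WNT5A, which stood at 95.7, 95.4 and 94.6 CPM in the libraries labelled A-498 and 0.302, 0.148 and 0.324 CPM in those labelled 786-0 (log2 fold change -8.49 ± 0.107 (SE), adjusted p = 4.3e-160). IGFBP4, a binding protein of insulin-like growth factors, had 2816 counts over the libraries labelled A-498 and 2 over those labelled 786-0 (a ratio of 1964 with a 95% counting interval of 543 to 16223). The receptor kinase AXL was higher there by a smaller step (312 ± 3.48 against 132 ± 1.31 CPM, log2 fold change -1.24), and MET, the receptor of hepatocyte growth factor, was abundant in both and not called (1028 ± 9.83 against 808 ± 34.1 CPM, log2 fold change -0.35). Higher in the libraries labelled 786-0 were 20, with the ephrin receptor EPHB4 (1.15 ± 0.156 against 192 ± 2.65 CPM, log2 fold change 7.37) and the insulin receptor INSR (0.0992 ± 0.0859 against 9.07 ± 0.286 CPM, log2 fold change 6.44) among them. The TGF-beta, BMP, WNT and NOTCH list gave 15 and 17 of 61, or 52.5% called against 34.4% of all genes. LFNG, which modifies NOTCH (229 ± 4.46 against 14.1 ± 0.857 CPM, log2 fold change -4.02), FZD8, a WNT receptor (59.5 ± 3.41 against 3.87 ± 0.48 CPM, log2 fold change -3.95), and TGFB2 (104 ± 3.47 against 33.4 ± 1.16 CPM, log2 fold change -1.65) were higher in the libraries labelled A-498, and TCF7L1 (0.544 ± 0.225 against 13.3 ± 0.363 CPM, log2 fold change 4.59), WNT5A (2.56 ± 0.0593 against 9.36 ± 0.602 CPM, log2 fold change 1.87) and JAG1 (42 ± 0.604 against 111 ± 3.67 CPM, log2 fold change 1.4) in those labelled 786-0.

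Kidney lineage factors included some at like levels and others read mainly in 1 line. PAX8, which marks kidney epithelium and its tumours, stood at 244, 242 and 249.8 CPM in the libraries labelled A-498 and 227, 230.2 and 214 CPM in those labelled 786-0 (log2 fold change -0.13 ± 0.0381 (SE), adjusted p = 0.001), and the label of both groups as kidney-derived is thus matched by a defining marker. Of 25 factors tested, 4 were higher in the libraries labelled A-498 and 10 in those labelled 786-0 (56.0% called, against 34.4% of all genes). NR2F1, a nuclear receptor of early development, stood at 0.839, 0.935 and 1.3 CPM in the libraries labelled A-498 and 91.4, 87 and 92.5 CPM in those labelled 786-0 (log2 fold change 6.46 ± 0.0925 (SE), adjusted p = 2.5e-148). POU3F3, a factor of the thick limb and distal tubule, stood at 1.43 ± 0.146 against 55.5 ± 3.38 CPM, log2 fold change 5.27. SIX2, which marks nephron progenitors, had 1 count, in replicate 1, over the libraries labelled A-498 and 359 over those labelled 786-0 (a ratio of 257 with a 95% counting interval of 45.9 to 10195). PAX2, HNF4A and WT1 were left out by the rule on rows at 0. HOX genes, which set position along the body axis, gave 5 of 32 called in each direction (31.2%), close to the 34.4% of all genes. Among those, HOXA7 (2.75 ± 0.217 against 47.7 ± 1.07 CPM, log2 fold change 4.11) and HOXA11 (6.61 ± 0.116 against 85.8 ± 2.38 CPM, log2 fold change 3.7) were higher in the libraries labelled 786-0, and HOXC4 (9.49 ± 1.08 against 2.12 ± 0.35 CPM, log2 fold change -2.16) in those labelled A-498.

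Of 32 listed markers of the proximal tubule, the segment from which most ccRCC arise, 20 were tested. Of these, 7 were higher in the libraries labelled A-498 and 5 in those labelled 786-0. LRP2, SLC5A12 and SLC6A19 were below the count filter, and SLC22A6, SLC22A8 and CYP4A11 were not analysed here. SLC7A7, AMN, MME, GATM, AQP1 and PROM1 were left out by the rule on rows at 0. The tested markers thus leave out many of the list. HAVCR1, the kidney injury molecule (434 ± 12.9 against 103 ± 5.56 CPM, log2 fold change -2.08), and CDH6, the cadherin of proximal tubule precursors (637 ± 24.8 against 235 ± 12.4 CPM, log2 fold change -1.44), were higher in the libraries labelled A-498, and ANPEP, a brush border peptidase (40.8 ± 0.90 against 488 ± 8.77 CPM, log2 fold change 3.58), and UGT2B7 (1.9 ± 0.63 against 47.7 ± 1.35 CPM, log2 fold change 4.65) in those labelled 786-0. CUBN, the albumin receptor cubilin, was low in both (1.47 ± 0.266 against 1.08 ± 0.159 CPM). Organic solute carriers were called in 18 of 27 genes, 9 in each direction (66.7%, against the same 34.4%). SLCO2B1, an uptake carrier of organic anions, stood at 7.11, 7.29 and 7.33 CPM in the libraries labelled A-498 and 338, 323 and 332 CPM in those labelled 786-0 (log2 fold change 5.51 ± 0.0568 (SE), adjusted p = 9.2e-178). SLC22A3, a carrier of organic cations (1.17 ± 0.218 against 77.6 ± 4.32 CPM, log2 fold change 6.05), and ABCG2, a drug efflux pump (0.907 ± 0.0705 against 8.91 ± 0.65 CPM, log2 fold change 3.29), were also higher there, and SLC47A1, which exports cations into urine, had 1 count, in replicate 2, against 1103 (a ratio of 791 with a 95% counting interval of 142 to 31264). The drug efflux pump ABCB1 was not called (149 ± 5.34 against 91.1 ± 2.98 CPM, log2 fold change -0.71). Of 11 markers of other nephron segments, 2 and 5 were called (63.6%, against the same 34.4%). CDH16 (43.2 ± 1.03 against 18.5 ± 0.504 CPM, log2 fold change -1.22) and CLDN10 (0.182 ± 0.189 against 6.42 ± 0.0753 CPM, log2 fold change 5.11) are examples of each direction. Without A-498 replicate 3 the log2 fold change of CLDN10 was 6.34.

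Inflammatory genes that differed before any IFNγ was given were more often higher in the libraries labelled A-498. Of 32 cytokines and chemokines, 15 were higher there and 6 in those labelled 786-0, with a median log2 fold change of -0.85. The share called was 65.6%, against 34.4% of all genes. The rule on rows at 0 left out 7 listed genes at 0 in the libraries labelled 786-0 and 1 at 0 in those labelled A-498. CXCL8, interleukin 8, stood at 48.4, 53.1 and 47.4 CPM in the libraries labelled A-498 and 0.638, 0.444 and 0.18 CPM in those labelled 786-0 (log2 fold change -6.85 ± 0.119 (SE), adjusted p = 4.0e-86). IL6 stood at 13.9, 14.3 and 13.3 CPM in the libraries labelled A-498 and 0.773, 1.3 and 1.29 CPM in those labelled 786-0 (log2 fold change -3.63 ± 0.138 (SE), adjusted p = 3.0e-68). TNFSF10, the death ligand TRAIL, was read in both lines and was higher in the libraries labelled A-498 (1711 ± 35.3 against 40.7 ± 1.64 CPM, log2 fold change -5.39). TNF was read at low level in the libraries labelled A-498 and had 0 counts in the others (at least 53-fold higher). In the opposite direction CXCL14 (at least 169-fold) and CCL26 (at least 88-fold) had 0 counts in the libraries labelled A-498. CCL2 was not called (10.4 ± 0.703 against 14.3 ± 0.621 CPM, log2 fold change 0.46). With PD-L1si 9 members were higher in the libraries labelled A-498 and 10 in those labelled 786-0, and whether the conditions differ in this was not tested. Complement and coagulation genes gave 7 and 13 of 34 (58.8% called, against the same 34.4%). C3 was higher in the libraries labelled A-498 (793 ± 33.4 against 218 ± 9.13 CPM, log2 fold change -1.87). C1S (41.5 ± 1.79 against 604 ± 24.1 CPM, log2 fold change 3.86) and C1R (11.9 ± 0.94 against 146 ± 6.03 CPM, log2 fold change 3.61), the proteases of the first component, were higher in those labelled 786-0.

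The interferon and antigen presentation list was close to the background, with 8 of 52 higher in the libraries labelled A-498 and 12 in those labelled 786-0 (38.5% called, median log2 fold change -0.06). Of the 12, 5 were genes of HLA class II or its peptide loading (HLA-DRA, HLA-DRB1, HLA-DPA1, HLA-DPB1 and HLA-DMA), which serve presentation to helper T cells. HLA-DMB, CD74 and CIITA of the same list were tested as well and are not among these 5. HLA-DPB1 had 162 counts over the libraries labelled 786-0 and 3 over those labelled A-498. HLA-DRA stood at 0 counts in every library labelled A-498 and 10.5, 8.22 and 7.73 CPM in those labelled 786-0, at least 179-fold higher, and HLA-DRB1 had 0 counts against 486 (at least 116-fold), although reads of HLA genes can be shared between close copies. B2M, the light chain of class I, was not called (1735 ± 32.3 against 1228 ± 41.7 CPM, log2 fold change -0.5). CD274, the gene of PD-L1, stood at 4.93, 6.79 and 7.18 CPM in the libraries labelled A-498 and 4.07, 4.33 and 4.39 CPM in those labelled 786-0 (log2 fold change -0.56 ± 0.129 (SE), adjusted p = 3.8e-05): its groups did not overlap, and the change was under the 2-fold limit. PDCD1LG2, the gene of PD-L2, was low in both and higher in the libraries labelled A-498 (1.34 ± 0.132 against 0.141 ± 0.0652 CPM, log2 fold change -3.19). Among 28 checkpoint and NK receptor ligands, 10 and 8 were called (64.3%, against 34.4% of all genes). Among them was ULBP1, a stress ligand of NK cells, with 543 counts against 2 (a ratio of 379 with a 95% counting interval of 104 to 3135). The stress ligands MICA (58.6 ± 0.802 against 17.1 ± 0.866 CPM, log2 fold change -1.77) and MICB (8.76 ± 0.272 against 26.3 ± 1.61 CPM, log2 fold change 1.58) differed in opposite directions. JAK2, IFNGR1, IFNGR2 and PSMB8 were left out by the rule on rows at 0.

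Among lists of at least 10 tested members, proliferation genes had the lowest share called. Only 6 of 49 cell cycle and replication genes were called (12.2%, against 34.4% of all genes), 4 higher in the libraries labelled A-498 and 2 in those labelled 786-0, and the median absolute log2 fold change was 0.28. TOP2A (567 ± 13.5 against 575 ± 14.6 CPM, log2 fold change 0.02), MCM7 (459 ± 8.73 against 450.0 ± 10.0 CPM, log2 fold change -0.03) and CDK1 (136 ± 7.55 against 122 ± 0.992 CPM, log2 fold change -0.16) lay at nearly equal levels. MKI67 stood at the limit (471 ± 27.8 against 235 ± 7.12 CPM, log2 fold change -1.0), and its call was lost under each of the 3 other scalings tried (-0.94 to -0.97). It was lost under many of the other alternatives too, GC centring among them. CCNE1, cyclin E1, was higher in the libraries labelled 786-0 (10.8 ± 0.423 against 34.4 ± 0.354 CPM, log2 fold change 1.67). Of 15 widely expressed control genes tested, GUSB (243 ± 1.01 against 97.9 ± 3.66 CPM, log2 fold change -1.31) and EEF1A1 (7685 ± 256 against 3768 ± 208 CPM, log2 fold change -1.03) were called and 13 were not. The EEF1A1 call was lost under the same scalings (-0.96 to -1.0) and under other alternatives, GC centring among them. TBP (18 ± 1.11 against 16.4 ± 0.457 CPM, log2 fold change -0.13) and GAPDH (3909 ± 114 against 5007 ± 182 CPM, log2 fold change 0.36) were among the 13. Immediate early factors gave 8 in each direction of 38, or 42.1% against the same 34.4%. FOSL1 (109 ± 3.86 against 46.4 ± 1.98 CPM, log2 fold change -1.24) and KLF6 (265 ± 6.08 against 39.4 ± 1.87 CPM, log2 fold change -2.75) were higher in the libraries labelled A-498, and ETV4 (0.148 ± 0.0486 against 11 ± 0.453 CPM, log2 fold change 6.17) and DUSP5 (12.9 ± 0.747 against 115 ± 5.3 CPM, log2 fold change 3.15) in those labelled 786-0. Among tumour genes of renal carcinoma 5 of 24 were called (20.8%, below the 34.4% of all genes), including EZH2 (97 ± 0.834 against 44 ± 1.87 CPM, log2 fold change -1.14), whose call was lost with GC centring (-0.95).

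Integrins and adhesion receptors gave 12 of 35 higher in the libraries labelled A-498 and 7 in those labelled 786-0 (54.3% called, against 34.4% of all genes). ITGB8, an activator of latent TGF-beta, was higher in the former (183 ± 3.02 against 19.2 ± 1.7 CPM, log2 fold change -3.24) and ITGA4, a receptor of VCAM-1, in the latter (1.3 ± 0.317 against 91.7 ± 3.14 CPM, log2 fold change 6.13). Markers of other cell types were examined as well. The summed CPM of 6 tested leukocyte markers was 0.985 to 1.35 in the libraries labelled A-498 and 7.59 to 9.41 in those labelled 786-0, where ITGAM (0.313 ± 0.173 against 5.44 ± 0.642 CPM) held most of it. CD68 stood at 0.247 ± 0.0983 against 1.2 ± 0.487 CPM, and most of its exonic bases are shared with another gene. The 4 endothelial markers tested summed to 1.1 CPM at most in any library, with PECAM1 at 1 count, in A-498 replicate 1, against 14. The 5 fibroblast markers summed to 80.8 to 90.5 CPM in the libraries labelled A-498 and 3.44 to 3.99 in those labelled 786-0, most of it COL6A3 in the former, while COL1A1, COL1A2, COL3A1, DCN and THY1 were left out by the rule on rows at 0. Their part in the differences above was not tested.

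The difference between the lines was then set against the same contrast in the other 3 conditions, fitted with all 24 libraries (20851 genes). In this fit 39.6% of genes were called under Cnsi IFNγ (17.1% higher in A-498 and 22.5% in 786-0, as labelled). Under PD-L1si 33.1% were called (12.9% and 20.2%), and under PD-L1si IFNγ 38.4% (16.3% and 22.1%). Of the 2797 genes higher in the Cnsi libraries labelled A-498, 2164 (77.4%) were called in the same direction under PD-L1si, 2068 (73.9%) under Cnsi IFNγ and 2048 (73.2%) under PD-L1si IFNγ. For the 3899 higher in those labelled 786-0 the values were 3334 (85.5%), 3050 (78.2%) and 3079 (79.0%). In all, 4213 of the 6696 genes (62.9%) kept their direction and call in all 4 conditions. Opposite calls were few, at 34 and 21 genes under Cnsi IFNγ, 3 and 0 under PD-L1si and 27 and 7 under PD-L1si IFNγ. The conditions come from different libraries of the same lines and instruments, so the confounding described above applies to each of them.

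The NRF2 list kept its direction in every condition, with 28 to 31 of 40 members higher in the libraries labelled 786-0 and 1 higher in those labelled A-498. The glutamine and ATF4 list gave 17 to 23 of 42 higher in the libraries labelled A-498 in the same 4 contrasts of that fit. The interferon list gave other counts, a change that was not itself tested. Of its 52 members, 8 were higher in the libraries labelled A-498 and 12 in those labelled 786-0 in Cnsi cells, 15 and 2 under Cnsi IFNγ, 4 and 18 under PD-L1si, and 11 and 5 under PD-L1si IFNγ. HLA-DRA was no longer called under Cnsi IFNγ, where both lines expressed it (log2 fold change 0.49). CDH1 was not called there either (0.51, difference of the differences 5.56, adjusted p = 5.5e-17). The EPAS1 difference was larger under IFNγ (-3.38, difference of the differences -1.98, adjusted p = 2.4e-29), as was that of CD274 (-1.98, difference of the differences -1.44, adjusted p = 5.6e-14). NAMPT (0.83, difference of the differences -1.37, adjusted p = 2.0e-23) and ANGPTL4 (1.12, difference of the differences -2.59, adjusted p = 2.2e-10) came closer between the lines. The difference of IL6 did not change detectably (-3.47, difference of the differences 0.14, adjusted p = 0.62).

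**Figure D4:**
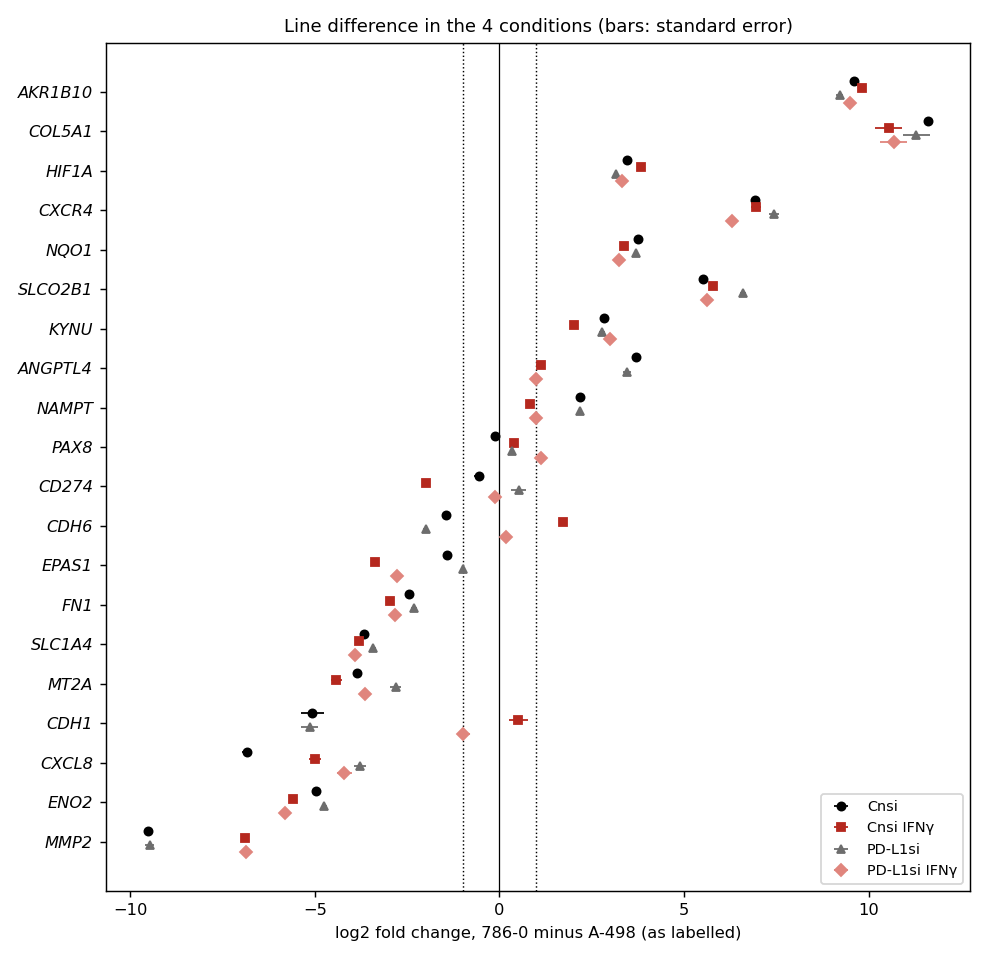
Log2 fold change between the lines (786-0 minus A-498, as labelled) with its standard error for 20 genes in each of the 4 conditions, with dotted lines at the 2-fold limit. AKR1B10, COL5A1, HIF1A and MMP2 stay on their side in all 4 conditions, whereas under Cnsi IFNγ CDH1 lies between -1 and 1 and CDH6 on the other side of 0.

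The differences were also laid out along the chromosomes, as a description with no test. Over genes at 1 CPM or more in both groups, the median log2 fold change per arm ran from -0.64 on 6q (281 genes) to 0.70 on 17p (219 genes). After 6q the lowest medians were on 18q (-0.57), 10p (-0.54), 1p (-0.49), 3p (-0.49) and 5p (-0.46). After 17p the highest were on 11p (0.46), 7p (0.45), 9p (0.45), 8p (0.44) and 17q (0.41). On 17p 88.1% of these genes were higher in the libraries labelled 786-0, and on 6q 21.4%. Neighbouring genes are not independent, DNA copy number was not measured here, and GC content differs between arms.

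**Figure D5:**
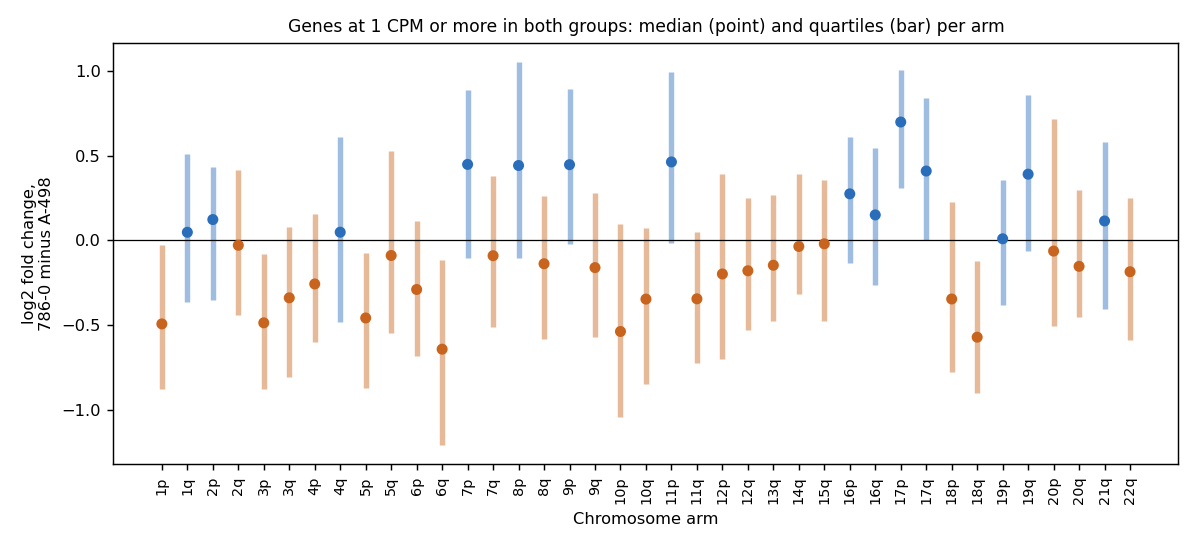
Median (point) and quartiles (bar) of the log2 fold change, 786-0 minus A-498, of genes at 1 CPM or more in both groups on each chromosome arm with at least 20 such genes, coloured by the sign of the median. The medians lie between -0.64 on 6q and 0.70 on 17p, and on 17p even the lower quartile (0.31) is above 0.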

How the data were processed

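RNA-seq was made for 24 libraries of the A-498 and 786-0 lines, and the 6 Cnsi libraries enter the main comparison. The authors deposited 1 table of raw counts per gene, one column per library: reads of poly-A stranded libraries were trimmed with Trimmomatic (0.36.6), aligned with HISAT2 (2.1.0) and counted per gene with featureCounts (1.6.3), as the study's methods and the submitters' processing notes give it. Gene names and coordinates are from the GENCODE 44 annotation of GRCh38, matched on the identifier without its version (39148 of 39321 rows). Rows of X and Y (1407), rows with no match (173) and rows at 0 in all 12 libraries of either line (4670 and 5600) were left out.

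Counts were scaled by TMM and tested in R (4.3.3) with the quasi-likelihood test of edgeR (4.0.16), two-sided and adjusted by Benjamini-Hochberg over 19470 genes. Fold changes carry SE, and levels are mean ± SD of 3 libraries. Bounds for genes at 0 use a floor of 3 counts over the group, and ratios against 1 to 3 counts have exact 95% intervals. Both cover counting error only. On simulated counts for 17917 genes all 100 genes changed 1.5 log2 units and all 100 changed by 3 were called, with 1 false call. The changed genes were well counted, and all others were drawn at equal means with the same spread for every gene. The run thus checks the code and does not measure power or false calls in these data.

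The members and the gene lists were chosen with earlier results of these data known. Named genes are the 10 protein-coding genes of each direction with the largest change at 10 CPM or more, up to 4 called members per list with the largest change at 1 CPM or more, the defining members of each list and CD274. AKR1B1, AKR1C3, GCLM, GCLC, GSR, TXNRD1, TXN, HMOX1, NFE2L2, KEAP1, PRDX1, PRDX2, PSAT1, SLC7A5, SLC38A1, ALDH1L2, SLC1A3, SLC7A11, IDO1, WARS1, ENO1, HK2, TKT, TALDO1, EPHB4, INSR, HAVCR1, TNFSF10, C1S, C1R, MICA, MICB, TOP2A, MCM7, CDK1, PCDHA10, LY75, HLA-DPA1, HLA-DMA, HLA-DMB, CD74, CIITA, GPX2, GSTA4, ME1, NMNAT1, NMNAT2, NMNAT3, NADSYN1 and NMRK1 were named in addition, after their values were seen. Alternatives covered scaling, count filters, thresholds, DESeq2 (1.42.0), all 24 libraries, leaving out each library and, chosen after seeing the data, centring within GC bins. Replicate numbers were not used as pairs. Some genes are not reported here.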

Additional observations from a re-analysis of the deposited data

Results flagged for a closer look

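Among called genes at 10 CPM or more in the higher group and the other named genes, 8 were picked out because the difference between the lines was called in opposite directions with and without IFNγ in Cnsi cells and the difference of the differences passed its own test (edgeR quasi-likelihood, adjusted over 20851 genes). They were chosen for this turn, so the values are a description. VAV3 stood at 114 to 119 CPM in the Cnsi libraries labelled A-498 and 3.69 to 6.57 under Cnsi IFNγ. In those labelled 786-0 it stood at 45.7 to 46.2 and 43.5 to 47.0 CPM, and the difference of the differences was 4.48 (adjusted p = 5.4e-40). CDH6 stood at 590.2 to 636 CPM in the Cnsi libraries labelled A-498 and 46.8 to 61.8 under Cnsi IFNγ, against 220.2 to 243 and 163 to 182 in those labelled 786-0, in the scaling over all 24 libraries (difference of the differences 3.13, adjusted p = 2.0e-27). The adaptor gene RASSF5 (3.59, adjusted p = 8.8e-25), the tubular antigen gene TINAG (3.26, adjusted p = 1.6e-21), LUARIS (3.26, adjusted p = 5.3e-17) and the unnamed gene ENSG00000254138 (2.85, adjusted p = 1.5e-24) turned in the same direction.

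CMKLR2, a receptor gene of the adipokine chemerin, turned the other way (-5.53, adjusted p = 9.8e-35). It stood at 0.573 to 0.811 CPM in the Cnsi libraries labelled A-498 and 47.3 to 50.9 under Cnsi IFNγ, against 11.4 to 12.9 and 16.6 to 19.6 in those labelled 786-0. LURAP1L did so too (-2.79, adjusted p = 3.6e-29). Under PD-L1si IFNγ, of these 8 genes only VAV3 (line difference 1.42), RASSF5 (1.01) and LURAP1L (-1.47) were called opposite to their Cnsi direction. Line and instrument are confounded in these values as in the others.

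In data outside the comparison, 1475 rows with more than 1000 counts over the 12 libraries labelled A-498 were at 0 in all 12 labelled 786-0, against 35 the other way round. Rows at 0 in the other line held 14.1% to 14.2% of all counts in the Cnsi libraries labelled A-498 and 0.078% to 0.080% in those labelled 786-0.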

How the results depend on the processing

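The count of 6696 genes stayed within 1.5 times its value, in each direction too, under the other scalings (RLE, library size alone, upper quartile), library sizes over all rows, the filterByExpr filter or none, DESeq2, a test against a 2-fold change, all 24 libraries, edgeR's newer or non-robust fit and centring within GC bins, at 5000 to 6828 genes. Counts moved with the threshold: 10495 genes (4911 higher in A-498, as labelled) at a log2 fold change over 0.5, 3542 (1219 and 2323) over 2, and 14420 (7065 and 7355) by adjusted p alone. Fewer genes tested gave 4386 (2440 higher in 786-0) with a summed count of 10 in both groups, and 3972 (1584 and 2388) with protein-coding genes only. Leaving out each library gave 6286 to 6529 genes, 2622 to 2721 higher in A-498 and 3614 to 3839 in 786-0. The replicate numbers do not pair the libraries (correlations of same-numbered deviations -0.05, -0.10 and -0.20), and with the number as a block 6562 genes passed (2758 and 3804). Another scaling moved the median of all genes from 0.04 to 0.10 at most.

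Of 188 named genes, 180 kept their call under each of 20 alternatives (thresholds and the test against a 2-fold change aside) that gave them a value. The only gene of the 188 to change sign was VCAM1, which was not called, from -0.26 to 0.10 with GC centring. The genes named in addition after their values were seen are not among the 188. They were not followed gene by gene through the alternatives. Calls of EEF1A1 and MKI67 were lost under other scalings, stricter count filters, protein-coding genes only, DESeq2 and GC centring. Both were also lost with some single libraries left out. That of MKI67 was lost too with library sizes over all rows, no count filter and all 24 libraries. The call of PECAM1 was lost with DESeq2 and without A-498 replicate 2, and those of EZH2 and ZEB1 with GC centring. COL4A1, MMP14 and MTAP passed with GC centring, and COL4A1 also without A-498 replicate 1. Of the list counts 1277 stayed within 1.5 times and 115 did not. Depth limits genes at 0: the floor of 3 counts over a group bounds their fold change, and the 3 libraries per line cannot separate line from instrument.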
